A study of Mus musculus with 6 samples.

Results

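The major histocompatibility complex (MHC) class II genes were examined in articular cartilage RNA-seq libraries of aged knockout (KO) and wildtype mice. They are 10 genes, taken by name from the 34709 genes of the deposited table: the classical chains H2-Aa, H2-Ab1 and H2-Eb1, the peptide exchange chains H2-DMa, H2-DMb1 and H2-DMb2, the modulator chains H2-Oa and H2-Ob, the invariant chain Cd74 and the transactivator Ciita. Levels are given in FPKM (fragments per kilobase, which scales for transcript length and library size). All 10 were among the 15373 genes tested, whose mean level reached 0.5 FPKM. Both groups had 3 libraries from 18-month-old male littermates, with no treatment named, and the KO line is listed in the study's resources as C57BL/6J. The study asked which transcripts of aged cartilage differ between the KO and wildtype animals.

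MHC class II molecules sit on the surface of B cells, dendritic cells and macrophages and hold peptides out to CD4+ T cells. A new alpha and beta chain pair first binds the invariant chain Cd74, which fills the groove until proteases trim it. The DM molecule then swaps the remaining fragment for a peptide, and the DO molecule restrains DM. Ciita binds no DNA itself. It is recruited by the RFX, CREB and NF-Y factors that sit on the X and Y boxes just before the start of each class II gene, and without it these genes are almost silent. Interferon-gamma switches Ciita on in many other cell types.

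Of the 10 genes, 8 lie together on chromosome 17 within 224 kb (chr17:34092340-34316674, GRCm38) and Ciita lies on chromosome 16. RefSeq promoter windows (GRCm38.p6, 250 bases before to 50 bases after the transcription start) were used for 7 members. Cd74 was left out of the search, and H2-Ab1 and Ciita had no window. Of the 7, 6 held X box letters 20 to 40 bases before Y box letters. The stretches of 60 bases around this pair are shown for 5 genes, because they hold the letters that these genes share. Whether factors bind these stretches, or Ciita acts through them, was not measured. They run 5′ to 3′ on the strand of the gene, with the X box letters (GCAAC, AACNNATGA or both) and the Y box letters (TGATTGG) in capitals.
H2-Aa, chr17:34287859-34287918, minus strand: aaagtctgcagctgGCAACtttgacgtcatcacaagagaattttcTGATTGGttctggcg
H2-Eb1, chr17:34305761-34305820, plus strand: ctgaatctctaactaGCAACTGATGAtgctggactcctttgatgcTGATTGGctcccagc
H2-DMb2, chr17:34145112-34145171, plus strand: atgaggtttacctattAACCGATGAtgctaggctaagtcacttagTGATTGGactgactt
H2-Oa, chr17:34092289-34092348, plus strand: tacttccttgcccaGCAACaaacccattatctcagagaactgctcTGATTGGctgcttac
H2-Ob, chr17:34238801-34238860, plus strand: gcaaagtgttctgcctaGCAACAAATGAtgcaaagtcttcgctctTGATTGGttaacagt

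The sixth gene with the pair was H2-DMb1, whose stretch was identical to that of H2-DMb2 at 53 of 60 bases. It is not shown because it lies in an annotated first exon. In the 6 genes the Y box letters began 45 to 92 bases before the RefSeq start, and the X box letters began 26 to 31 bases ahead of the Y box letters. The deposited table starts H2-DMb1, H2-DMb2 and H2-Oa at 34153072, 34143307 and 34092340. By those starts, the stretches of these genes lie wholly or partly inside the gene. H2-DMa had 2 windows, and neither held the pair. Over all 32851 promoter windows of the same length, searched on both strands, TGATTGG was found in 7.82%, GCAAC in 35.2% and AACNNATGA in 2.85%. The letters of the 2 X box forms can overlap, as they do in H2-Eb1 and H2-Ob. The pair at this spacing was found in 72 windows, 0.219% of all. The letters were chosen after reading the members' own windows, so these shares describe the members and test nothing.

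**Figure D1:**
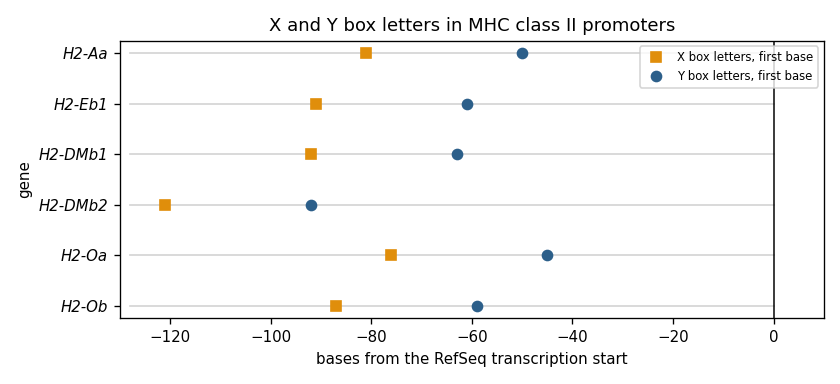
Distance in bases (x axis) from the RefSeq transcription start (vertical line) to the first base of the X box letters (squares) and of the Y box letters (circles) in the 6 class II genes that held both (y axis). In 5 genes the Y box letters began 45 to 63 bases before the start, and in H2-DMb2 they began 92 bases before it.

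KO replicates 2 and 3 were far more alike than any other pair of libraries. Over 7614 genes the median absolute difference between them was 0.0481 on the log2 scale, against 0.132 to 0.314 in the 14 other pairs, so they were averaged and counted as 1 KO sample. The comparison thus had 2 KO and 3 wildtype samples, and the 6 libraries as labelled are given beside it. KO replicate 1 was nearer to every wildtype library (0.239, 0.144 and 0.198 for wildtype replicates 1, 2 and 3) than to KO replicates 2 and 3 (0.276 each). Total counts were 52268311 to 63331135 per library, and class II genes had 252 to 46887 counts each.

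The libraries held a strong signal of blood and marrow cells beside that of cartilage. The neutrophil gene S100a8 stood at 6439.6 to 16321 FPKM and the haemoglobin gene Hba-a1 at 4489.8 to 18189.9 FPKM. The cartilage genes Col2a1 (12.4 to 21.3 FPKM), Acan (13.2 to 22.8 FPKM) and Prg4 (402 to 1034 FPKM) were present, whereas Matn1, Matn3 and Col9a1 stayed under the 0.5 FPKM limit. In such bulk tissue, fewer cells of a type and less RNA per cell cannot be told apart.

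All 10 class II genes were lower in the KO samples than in wildtype, with a median log2 difference of -0.59 against -0.02 over all genes tested. None passed the test. With edgeR's quasi-likelihood test on the 5 samples, adjusted p ran from 0.172 for H2-Ob to 0.848 for H2-DMa, and 0% of all genes tested passed. At an unadjusted p under 0.05, 6 of the 10 genes were lower (H2-Eb1, H2-DMb2, H2-Oa, H2-Ob, Cd74 and Ciita), where 6.07% of all genes were. In 9 of the 10 genes every KO library lay below every wildtype library, as it did in 13.7% of all genes.

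The call depended on the tool and on how KO replicates 2 and 3 were counted. DESeq2 on the same 5 samples called H2-Ob and Ciita lower, where it called 2.23% of all genes lower. limma called 0 of the 10. With the 6 libraries as labelled, edgeR also called H2-Ob (adjusted p = 0.0422) and Ciita (adjusted p = 0.0450), against 1.25% of all genes called lower. DESeq2 on those 6 libraries called 8 of the 10, all but H2-DMa and H2-DMb1, against 5.67% of all genes.

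**Figure D2:**
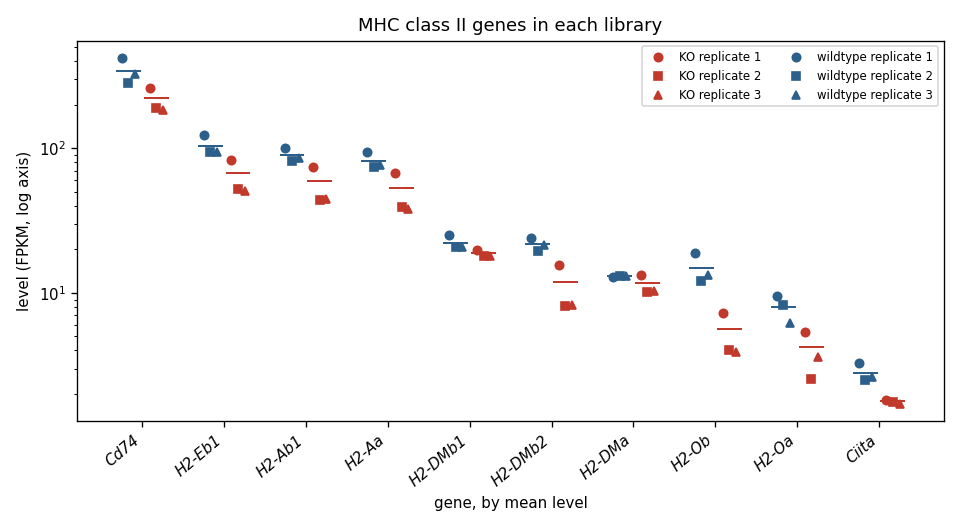
Level in FPKM (log axis) of each class II gene (x axis, ordered by mean level) in the 3 wildtype (blue) and 3 KO (red) libraries, with lines at the group means (KO replicates 2 and 3 averaged first). Only in H2-DMa do the groups overlap, since KO replicate 1 (13.3 FPKM) stands above the wildtype libraries.

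The classical chains were examined first. H2-Aa and H2-Ab1 encode the alpha and beta chains of the I-A molecule, which displays the peptide. H2-Aa stood at 67.5, 39.2 and 37.8 FPKM in KO replicates 1, 2 and 3 and at 94.7, 74.3 and 77.0 FPKM in wildtype replicates 1, 2 and 3. H2-Ab1 stood at 74.1, 43.9 and 44.7 FPKM in the KO libraries and at 101, 82.2 and 85.3 FPKM in the wildtype libraries. In both genes KO replicate 1 lay closer to the nearest wildtype library than to KO replicates 2 and 3. The KO mean of H2-Aa was 53.0 ± 20.5 FPKM (SD, n = 2), and its wildtype mean was 82.0 ± 11.1 FPKM (SD, n = 3). The log2 difference was -0.59 ± 0.27 (SE, edgeR adjusted p = 0.404) for H2-Aa and -0.56 ± 0.25 (SE, edgeR adjusted p = 0.387) for H2-Ab1. The KO and wildtype libraries did not overlap in either gene, and neither gene passed the test.

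H2-Eb1 encodes the beta chain of the second classical molecule, I-E. Its level was 83.1, 52.2 and 50.9 FPKM in the KO libraries and 124, 94.8 and 94.3 FPKM in the wildtype libraries, again with KO replicate 1 highest of its group. Its log2 difference was -0.59 ± 0.25 (SE), with an unadjusted p of 0.0465 and an edgeR adjusted p of 0.357. Its alpha chain partner is encoded by H2-Ea, whose promoter is known to be deleted in mice of the b haplotype such as C57BL/6. H2-Ea was listed at 0 in 5 of the 6 libraries and at 0.165 FPKM in wildtype replicate 1. The related H2-Eb2 stood at 0.754, 0.524 and 0.506 FPKM in KO and at 3.38, 2.01 and 2.14 FPKM in wildtype, a log2 difference of -1.94 ± 0.34 (SE, edgeR adjusted p = 0.166). H2-Ea and H2-Eb2 are not among the 10 genes and were picked once their values were known.

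The invariant chain Cd74, on chromosome 18, had the highest level of the 10 genes in every library. It stood at 262, 189 and 183 FPKM in the KO libraries and at 423, 284 and 329.8 FPKM in the wildtype libraries. The groups did not overlap, with KO replicate 1 just under wildtype replicate 2. The KO mean was 224 ± 53.2 FPKM (SD, n = 2) and the wildtype mean was 346 ± 71.1 FPKM (SD, n = 3). The log2 difference of -0.59 ± 0.24 (SE, edgeR adjusted p = 0.352) was the same, to 2 decimals, as those of H2-Aa and H2-Eb1. The microRNA gene Mir5107 lies within Cd74 on the same strand.

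Ciita, the transactivator, had the lowest level of the 10 genes in every library. It stood at 1.81, 1.77 and 1.71 FPKM in the KO libraries and at 3.27, 2.49 and 2.61 FPKM in the wildtype libraries. Here the KO libraries lay close together, and KO replicate 1 did not stand apart from the other KO libraries. The KO mean was 1.78 ± 0.0531 FPKM (SD, n = 2), and the wildtype mean was 2.79 ± 0.424 FPKM (SD, n = 3). The log2 difference was -0.62 ± 0.17 (SE), with an unadjusted p of 0.00706 and an edgeR adjusted p of 0.194, or 0.0207 with DESeq2. Ciita overlaps Dexi (1.53 to 2.32 FPKM) on the opposite strand, and the strand setting of the counting is not given in the sources used here.

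The DM genes included both the smallest differences and a larger one. H2-DMa encodes the alpha chain of DM, the catalyst of peptide exchange. Its level was 13.3, 10.1 and 10.3 FPKM in the KO libraries and 12.8, 13.2 and 13.1 FPKM in the wildtype libraries. KO replicate 1 was the highest library of all, so the groups overlapped, and the log2 difference was -0.12 ± 0.17 (SE, edgeR adjusted p = 0.848). H2-DMa overlaps Brd2 (24.5 to 28.0 FPKM) on the opposite strand, and the part of Brd2 reads in its level was not tested.

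H2-DMb1 and H2-DMb2 each encode a beta chain of DM. H2-DMb1 stood at 19.9, 17.9 and 18.1 FPKM in KO and at 25.3, 20.8 and 20.8 FPKM in wildtype, a log2 difference of -0.21 ± 0.15 (SE, edgeR adjusted p = 0.624). H2-DMb2 stood at 15.6, 8.06 and 8.21 FPKM in KO and at 24.1, 19.5 and 21.6 FPKM in wildtype, a log2 difference of -0.83 ± 0.29 (SE, edgeR adjusted p = 0.277). The groups were separate in both genes, by under 1 FPKM in H2-DMb1 and by a wider gap in H2-DMb2. The values of this pair are uncertain: of the runs of 25 bases in the longest coding transcript of H2-DMb1, 42.1% also occurred in H2-DMb2, and of the runs of 150 bases, 5.74% did, so that reads could be split between them.

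The DO genes, which are known mostly from B cells, had the lowest ratios of KO to wildtype in the 5-sample fit. H2-Oa (0.542) was there close to the DM gene H2-DMb2 (0.561), and their order changed in some alternatives. With limma on log2(FPKM + 1), the log2 difference was -0.80 for H2-Oa and -0.88 for H2-DMb2. H2-Oa, the DO alpha chain, stood at 5.36, 2.53 and 3.61 FPKM in KO and at 9.53, 8.19 and 6.22 FPKM in wildtype. KO replicate 1 came within 1 FPKM of wildtype replicate 3, and the log2 difference was -0.88 ± 0.32 (SE, edgeR adjusted p = 0.296). H2-Ob, the DO beta chain, stood at 7.30, 4.0 and 3.88 FPKM in KO and at 19.0, 12.1 and 13.4 FPKM in wildtype. Every KO library had under 8 FPKM and every wildtype library over 12 FPKM. The log2 difference of H2-Ob was -1.36 ± 0.32 (SE), which put KO at 0.391 of wildtype, with an unadjusted p of 0.00342 and an edgeR adjusted p of 0.172. H2-Ob had the lowest log2 difference of the 10 genes in this fit and in each of the 22 alternatives, some of which repeat the same fit.

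The order of levels was alike in both groups at its ends. In wildtype the mean ran down from Cd74 (346 FPKM) to H2-Eb1 (104 FPKM), H2-Ab1 (89.5 FPKM), H2-Aa (82.0 FPKM), H2-DMb1 (22.3 FPKM), H2-DMb2 (21.7 FPKM), H2-Ob (14.8 FPKM), H2-DMa (13.0 FPKM), H2-Oa (7.98 FPKM) and Ciita (2.79 FPKM). The neighbours H2-Eb1 and H2-Ab1, H2-Ab1 and H2-Aa, H2-DMb1 and H2-DMb2, and H2-Ob and H2-DMa had overlapping ranges over the wildtype libraries. In KO, H2-DMb1 (18.9 FPKM) was followed by H2-DMb2 (11.9 FPKM), H2-DMa (11.8 FPKM) and then H2-Ob (5.62 FPKM).

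**Figure D3:**
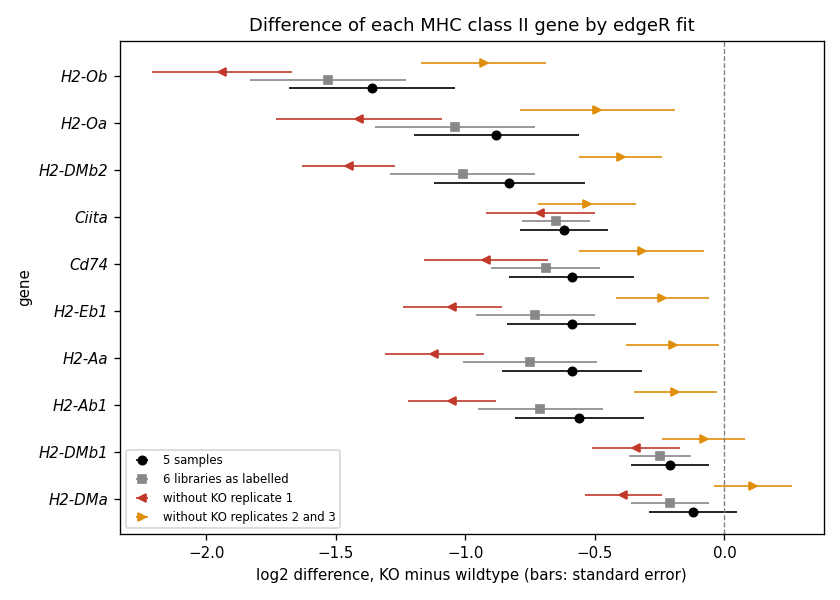
Log2 difference, KO minus wildtype (x axis, bars are standard errors), of each class II gene (y axis) in the edgeR fits of the 5 samples (circles), of the 6 libraries as labelled (squares), without KO replicate 1 (left triangles) and without KO replicates 2 and 3 (right triangles). H2-Ob lies farthest left in all 4 fits, and H2-DMa crosses 0 without KO replicates 2 and 3.

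The size of the difference depended on which KO library was used. Without KO replicate 1, the merged KO replicates 2 and 3 stood alone against the 3 wildtype libraries, and the median log2 difference of the 10 genes was -1.05. In that fit, where the lone KO sample is assumed to vary like the wildtype samples, edgeR called H2-Aa, H2-Ab1, H2-DMb2 and H2-Ob lower, against 0.585% of all genes. With KO replicate 1 alone, the median was -0.28, and 0 of the 10 genes were called, with 3 lower at an unadjusted p under 0.05 (H2-DMb2, H2-Ob and Ciita), as 4.46% of all genes were. The 6 libraries as labelled without KO replicate 1, in which the near-identical KO replicates 2 and 3 count as separate samples, had 9 of the 10 genes called lower by edgeR, against 10% of all genes. The log2 difference of H2-Aa was -1.12 ± 0.19 (SE) without KO replicate 1 and -0.20 ± 0.18 (SE) with KO replicate 1 alone. Ciita moved less, from -0.71 ± 0.21 (SE) to -0.53 ± 0.19 (SE). H2-DMa turned from -0.39 ± 0.15 (SE) to 0.11 ± 0.15 (SE).

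Ratios between genes of the same library do not depend on the library's total. They were compared by their values, with no test. The I-A chains stood in like proportion in both groups. H2-Aa was 0.911, 0.893 and 0.846 of H2-Ab1 in the KO libraries and 0.937, 0.903 and 0.902 in the wildtype libraries, and the groups overlapped. In the pairs of DO and DM genes compared, DO RNA was lower relative to DM RNA in KO. Their DM genes, H2-DMa and H2-DMb1, had the smallest differences of the class II genes, and no ratio of a DO gene to H2-DMb2 was taken. The limits on the values of H2-DMa and H2-DMb1 given above apply here too. H2-Oa was 0.251 to 0.402 of H2-DMa in KO and 0.476 to 0.743 in wildtype, and H2-Ob was 0.214 to 0.367 of H2-DMb1 in KO and 0.581 to 0.751 in wildtype. H2-DMb2 was 0.451 to 0.784 of H2-DMb1 in KO and 0.937 to 1.04 in wildtype, with the limit on this pair given above.

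**Figure D4:**
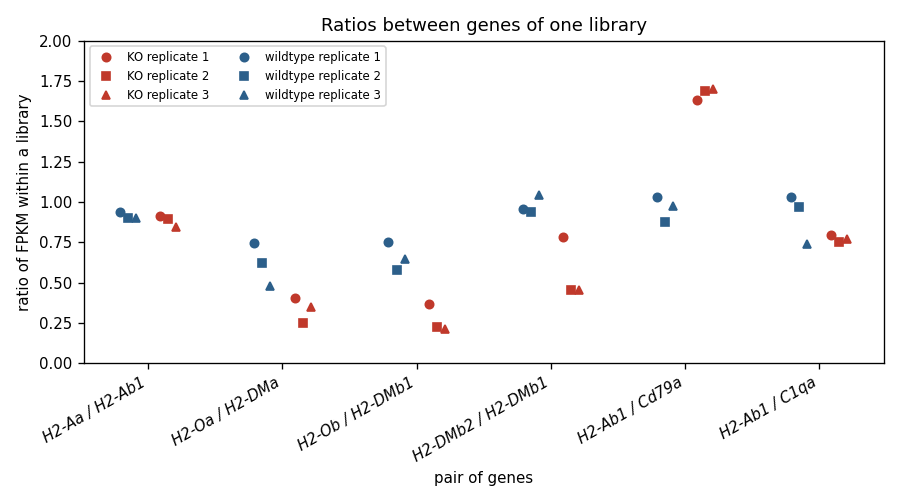
Ratio of the FPKM of gene pairs within a library (y axis) for 6 pairs (x axis) in the 3 wildtype (blue) and 3 KO (red) libraries. The ratios of H2-Oa to H2-DMa, H2-Ob to H2-DMb1 and H2-DMb2 to H2-DMb1 lie lower in every KO library, that of H2-Ab1 to the B cell gene Cd79a lies higher, and the other pairs overlap.

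The regulators of the class II genes other than Ciita were spread around 0. Of 12 transcription factors, 6 were lower and 6 higher in KO, and 0 passed the test with edgeR. At an unadjusted p under 0.05, 1 was lower and 1 higher, where 933 and 1173 of all 15373 genes tested were. The median log2 difference was 0.01. Rfx5, the RFX subunit that binds the X box, stood at 3.78 to 4.25 FPKM in KO and at 3.29 to 5.05 FPKM in wildtype. Its partners Rfxap (log2 difference 0.27 ± 0.22, SE, edgeR adjusted p = 0.694) and Rfxank (0.22 ± 0.17, SE, edgeR adjusted p = 0.679) also overlapped between groups. The only factors of the 12 with separate groups were Irf4, known from activated lymphocytes, at 3.12 to 4.08 FPKM in KO and 4.97 to 6.42 FPKM in wildtype, and Spi1, a myeloid and B cell factor, at 71.8 to 90.2 FPKM in KO and 44.6 to 51.5 FPKM in wildtype. Over all genes, the groups were separate with KO lower in 13.7% and with KO higher in 11.3%. Irf4 and Spi1 were named once their values were known. With the 6 libraries as labelled, 1 of the 12 was called, and it was higher in KO, as were 378 of the 15373 genes tested.

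Of 7 genes of the interferon-gamma pathway, 6 were tested, 0 were called, and the median log2 difference was 0.09. The receptor chains Ifngr1 (log2 difference 0.29 ± 0.14, SE, edgeR adjusted p = 0.439) and Ifngr2 (0.32 ± 0.13, SE, edgeR adjusted p = 0.330) and the kinase Jak1 (0.13 ± 0.15, SE, edgeR adjusted p = 0.790) all had log2 differences above 0. Ifngr2 was the only tested gene of the list with separate groups, at 19.8 to 21.4 FPKM in KO and 16.0 to 17.3 FPKM in wildtype. The groups were separate with KO higher in 11.3% of all genes. Ifng itself stayed at or under 0.185 FPKM in every library and was not tested.

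Of 11 listed proteases and other partners of class II processing, 9 were found by name in the deposited table, and all 9 were tested. None was called, and the median log2 difference was -0.09. In 2 of the 9 every KO library lay below every wildtype library, against 13.7% of all genes. The protease Ctss, which trims Cd74, stood at 187 to 208 FPKM in KO and 168 to 196 FPKM in wildtype. Those with separate groups were the protease Ctsl, at 15.0 to 18.9 FPKM in KO and 19.5 to 22.9 FPKM in wildtype, and Marchf8, a ubiquitin ligase, at 11.4 to 13.4 FPKM in KO and 16.1 to 20.4 FPKM in wildtype. Ctsl had a log2 difference of -0.29 ± 0.15 (SE, edgeR adjusted p = 0.482) and Marchf8, named once its values were known, one of -0.52 ± 0.16 (SE, edgeR adjusted p = 0.237). The log2 difference of Ctsb was -0.18 ± 0.20 (SE, edgeR adjusted p = 0.783). Of 6 co-stimulation genes, 5 were tested and 0 were called, with a median of -0.12. Cd80 and Cd86, the ligands of CD28, overlapped between groups, whereas Cd40, known from B cells and other presenting cells, stood at 1.32 to 1.64 FPKM in KO and 2.17 to 3.06 FPKM in wildtype (log2 difference -0.72 ± 0.25, SE, edgeR adjusted p = 0.269).

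MHC class I genes, which present peptides to CD8+ T cells in nearly all cell types, had a median log2 difference of 0.00 over 12 genes, and 0 were called. H2-K1 (-0.23 ± 0.20, SE, edgeR adjusted p = 0.707), H2-D1 (0.06 ± 0.19, SE, edgeR adjusted p = 0.941) and B2m (-0.07 ± 0.19, SE, edgeR adjusted p = 0.937) overlapped between groups. Every KO library lay below every wildtype library in 1 of the 12 class I genes, H2-Q4, against 13.7% of all genes. Every KO library lay above every wildtype library in 2 of them, Psmb8 and Psmb9, against 11.3% of all genes. H2-Q4, Psmb8 and Psmb9 were named once their values were known.

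**Figure D5:**
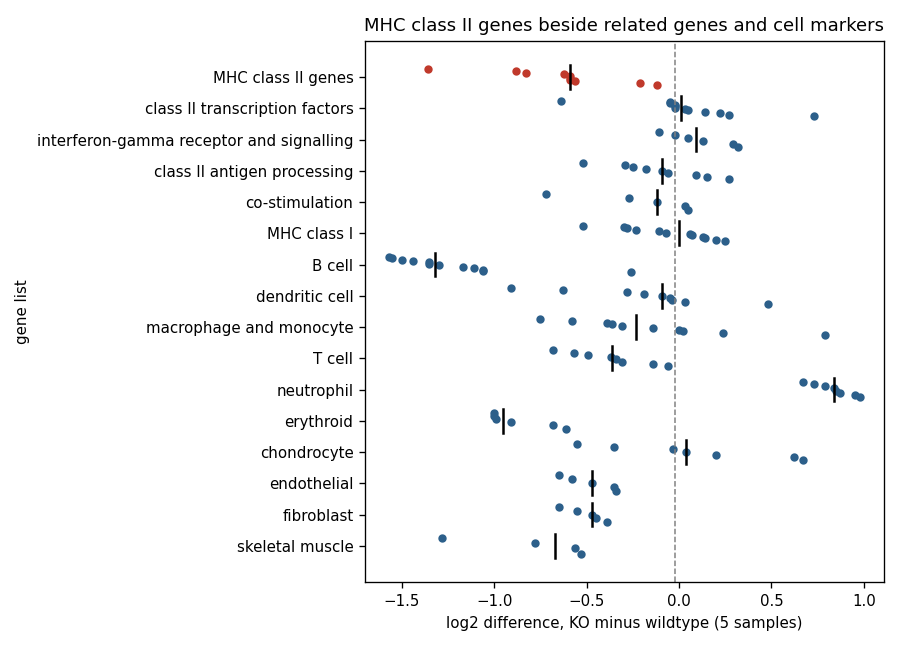
Log2 difference, KO minus wildtype, in the edgeR fit of the 5 samples (x axis) of each tested gene (points) of 16 lists (y axis), with the list medians (bars) and the median of all genes tested, -0.02 (dashed line). The class II genes (red, median -0.59) lie left of the class I genes (0.00) and right of the B cell genes (-1.32).

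Markers of the cell types that carry class II molecules did not all move with them. The B cell list had 12 of 12 genes lower, with a median log2 difference of -1.32. In 11 of the 12 every KO library lay below every wildtype library, against 13.7% of all genes. Cd79a stood at 45.6, 26.1 and 26.3 FPKM in KO and at 98.3, 94.2 and 87.6 FPKM in wildtype. Cd79a and Cd79b, the signalling chains of the B cell receptor, had log2 differences of -1.35 ± 0.26 and -1.17 ± 0.23 (SE, edgeR adjusted p = 0.166 for both). The exception was Ighm, at 607 to 986 FPKM in KO and 861 to 1059.9 FPKM in wildtype, whose level made up most of the summed list (765 to 1082 FPKM in KO, 1165 to 1369 FPKM in wildtype). With the 6 libraries as labelled, 8 of the 12 B cell genes were called lower, against 1.25% of all genes. Their part in the class II levels was not tested.

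Relative to Cd79a, H2-Ab1 was higher in every KO library. The ratio of H2-Ab1 to Cd79a was 1.63, 1.69 and 1.70 in the KO libraries and 1.03, 0.873 and 0.974 in the wildtype libraries. Relative to C1qa, a macrophage gene, it overlapped, at 0.752 to 0.796 in KO and 0.742 to 1.03 in wildtype.

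The macrophage and monocyte list had a median log2 difference of -0.23 over 10 genes, with 1 gene separate in each direction and 0 called. Over all genes, 13.7% were separate with KO lower and 11.3% with KO higher. C1qa stood at 93.1, 58.4 and 58.2 FPKM in KO and at 98.1, 85.1 and 115 FPKM in wildtype. Like the classical chains, C1qa was higher in KO replicate 1 than in KO replicates 2 and 3, but there it reached into the wildtype range. C1qb and C1qc had log2 differences of -0.31 ± 0.21 and -0.39 ± 0.24 (SE, edgeR adjusted p = 0.596 and 0.548). The 2 separate genes, named once their values were known, were Mrc1 and Ly6c2. Mrc1 stood at 7.61 to 8.08 FPKM in KO and 10.3 to 15.4 FPKM in wildtype. Ly6c2, a monocyte gene, stood at 218 to 248 FPKM in KO and 125 to 144 FPKM in wildtype. In all, 6 of the 10 genes were lower in KO and 4 higher. The summed list was 532 to 579 FPKM in KO and 488 to 581 FPKM in wildtype. Ly6c2 had the highest level of the list in every library, so the sum hides the lower genes.

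Of 10 listed dendritic cell markers, 9 were tested, 0 were called, and the median log2 difference was -0.09. In 2 of the 9, Zbtb46 and Ccr7, the groups were separate, with KO lower, as they were in 13.7% of all genes. The summed level of all 10 listed markers was 23.6 to 26.7 FPKM in KO and 27.7 to 30.6 FPKM in wildtype. Flt3 (0.48 ± 0.28, SE, edgeR adjusted p = 0.531) had a log2 difference above 0, whereas Zbtb46 was 0.846 to 1.35 FPKM in KO and 1.45 to 2.19 FPKM in wildtype (-0.63 ± 0.25, SE, edgeR adjusted p = 0.326). Ccr7, a homing receptor named once its values were known, stood at 1.02 to 2.05 FPKM in KO and 2.51 to 3.81 FPKM in wildtype (-0.91 ± 0.34, SE, edgeR adjusted p = 0.304). Itgax overlapped between groups. The T cell list, whose cells read class II molecules, had a median of -0.36, with 0 called. In it 3 of 8 genes were separate and lower, against 13.7% of all genes. Cd3e, Cd3d and Cd3g had log2 differences of -0.31 ± 0.43, -0.57 ± 0.32 and -0.68 ± 0.27 (SE, edgeR adjusted p = 0.843, 0.499 and 0.326).

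Other lists differed between the groups as well, in part in the opposite direction. The 8 neutrophil genes were all higher in KO (median log2 difference 0.84, 0 called). In 7 of the 8 the groups were separate, as they were with KO higher in 11.3% of all genes. Among the 8 were S100a8 (0.73 ± 0.43, SE), S100a9 (0.79 ± 0.43, SE) and Ly6g (0.84 ± 0.24, SE). The 6 erythroid genes were all lower with separate groups (median -0.95, 0 called), as were 13.7% of all genes. Among the 6 were Hba-a1, Hbb-bt and Hbb-bs (-0.99 ± 0.50, -1.0 ± 0.57 and -1.0 ± 0.65, SE). The 7 chondrocyte genes tested had a median of 0.04, and Col2a1, Acan and Sox9 overlapped between groups. The median was -0.47 for both the endothelial list, with Pecam1, Cdh5 and Kdr, and the fibroblast list, with Col1a1, Col1a2 and Pdgfra. All 5 genes of each list were lower in KO, as were 8065 of the 15373 genes tested. The 4 skeletal muscle genes were also all lower (median -0.67, 0 called), with standard errors of 1.51 to 1.76. Among them Acta1, Ckm and Myh4 ranged widely, for Acta1 from 0.251 FPKM in KO replicate 2 to 60.7 FPKM in wildtype replicate 3. The part of any of these cell types in the class II levels was not tested.

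Finally, genes whose pattern over the 6 libraries was most like that of the classical chains were sought. For the 7614 genes whose mean reached 5 FPKM, the measure was the root mean square difference between centred log2(FPKM + 1) values of the gene and of the mean of H2-Aa, H2-Ab1 and H2-Eb1. A flat profile would give 0.469, and the median gene gave 0.524. Cd74 ranked 7 with 0.114, H2-DMb2 ranked 22 and H2-Oa ranked 60, whereas H2-Ob (0.327), H2-DMa (0.330) and H2-DMb1 (0.331) ranked 625, 656 and 671. The measure takes in the size of the differences between libraries as well as their order. Beside the classical chains, the difference between KO and wildtype was larger in H2-Ob and smaller in H2-DMa and H2-DMb1. The 5 nearest genes outside the class II genes were Cnn3 (0.0565), Gas6 (0.0667), AK157302 (0.0949), Sfrp4 (0.115) and Epdr1 (0.117). Cnn3, an actin-binding calponin, stood at 12.7, 7.64 and 8.14 FPKM in KO and at 18.7, 15.0 and 14.5 FPKM in wildtype. Gas6, a ligand of the TAM receptors, stood at 46.1, 28.6 and 27.3 FPKM in KO and at 64.0, 52.6 and 59.7 FPKM in wildtype. Both shared the intermediate level of KO replicate 1 and the low level of KO replicates 2 and 3. With 6 libraries, of which KO replicates 2 and 3 are so alike, many genes can share such an order.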

How the data were processed

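Articular cartilage mRNA of 3 KO and 3 wildtype libraries was sequenced as strand-specific paired reads with molecular identifiers, per the labels. The knocked-out gene and 1 listed marker gene are not reported here. The submitters' processing notes list cutadapt 1.9, HISAT2 2.0.4, UMI-tools, StringTie 1.3.4d, DESeq2 and edgeR. The genome build is not given in the sources used here, and 91.4% of the genes shared with GENCODE M21 (GRCm38) had the same start and end. H2-Ob had the same start there but another end. The authors deposited FPKM per library, with no scaling between libraries stated. They also deposited estimated counts, which were whole numbers, so a count need not be 1 read pair. No per-sample column was left unused.

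The 5-sample comparison used edgeR 4.0.16 (R 4.3.3) with TMM scaling and a quasi-likelihood test, adjusted by Benjamini-Hochberg over all 15373 genes and called at 0.05. KO replicates 2 and 3 were averaged (counts rounded). The standard error is the absolute log2 difference over the square root of F. The fits were tested on simulated data. Same-numbered libraries did not deviate together, so no block was used. DESeq2 1.42.0, limma 3.58.1 on log2(FPKM + 1) and log2(FPKM + 0.1), other filters and scaling, and each library left out were alternatives. The labels do not tie each library to an animal, so p-values measure only the spread between these samples.

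The class II genes and the other gene lists were chosen with earlier results of these data known. The rule for naming genes took all 10 class II genes, the first 3 genes of every other list, and the 5 other genes most like the classical chains. Exceptions are stated.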

Additional observations from a re-analysis of the deposited data

How the results depend on the processing

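Of 219 values of single class II genes under 22 alternatives, 218 were lower in KO. The exception was H2-DMa at 0.11 on the log2 scale without KO replicates 2 and 3. The fits without KO replicate 2 and without KO replicate 3 were each counted among both the 5-sample and the 6-library alternatives, with identical values. The number of the 10 genes called was 0 in the 5-sample edgeR fit. It was 2 with DESeq2, 2 with the 6 libraries as labelled and 8 with DESeq2 on those 6 libraries (added after seeing the data), while median-of-ratios scaling, both limma pseudocounts, no filter and a minimum of 5 FPKM gave 0. Over the fits that left out 1 library it ran from 0 to 9, with 4 and 9 called without KO replicate 1 (5 samples, added after seeing the data, and 6 libraries, with KO replicates 2 and 3 as separate samples) and 0 in all others. The median log2 difference, -0.59 in the 5-sample fit, ran from -1.05 to -0.49 when 1 library was left out and was -0.28 without KO replicates 2 and 3. It moved by less than the spread between samples (SD 0.19) under all other alternatives. Ciita fell under the minimum of 5 FPKM and had no value there.

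Deviations of same-numbered libraries from their group means correlated at -0.145, -0.108 and -0.0581, so the replicate numbers were not taken as pairs. A replicate block on the 6 libraries called 0 of the 10 genes against 2 without it, with a median log2 difference of -0.77. The lowest count of any class II gene was 252, for H2-Oa in KO replicate 2.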
